A study of Mus musculus with 6 samples.

Results

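The contractile apparatus of myoepithelial cells was followed through 10 genes chosen by name: Oxtr, Acta2, Actg2, Myh11, Myl9, Mylk, Cnn1, Cald1, Tagln and Lmod1. All 10 of the 10 had a row among the 24421 gene symbols of the deposited table, and all 10 averaged 1 FPKM or more over the 6 libraries, the minimum for a test, as did 13364 genes in all. FPKM corrects read fragments for transcript length and library size, so levels can be compared between genes. The libraries were made from total RNA of mammary tissue of female FVB/NJ mice aged 5 months. The 3 mammary gland libraries came from mice labelled FVB/NJ; Tg(LINK-A), and 3 breast tumour libraries from mice labelled FVB/NJ; MMTV-Tg(LINK-A), so that both groups carry a transgene for the long non-coding RNA LINK-A and only the tumour donors' label names MMTV, a viral promoter that drives expression in mammary epithelium. Genotype and tissue cannot be told apart in this design. The labels do not say that the libraries of a group came from separate animals, nor from how many transgenic lines, so the p-values refer to the spread among these 6 libraries, which may be technical.

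Myoepithelial cells form the outer layer of mammary ducts and alveoli and squeeze milk out of the gland. Oxytocin from the pituitary binds the oxytocin receptor on these cells, a receptor coupled to Gq, and the calcium that is released activates calmodulin and myosin light chain kinase, which phosphorylates the light chain of smooth muscle myosin. The actin, myosin, calponin and transgelin genes they use are shared with vascular smooth muscle, pericytes and myofibroblasts. In bulk tissue, fewer cells of a type and less RNA per cell cannot be told apart.

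Libraries are given in the order 1, 2, 3 throughout. The FPKM values summed to 486080.1 to 582996.1 per library, and absolute depth is unknown because the table holds no read totals. The steps between low values put the other libraries at a rough 1.43 to 1.88 times the depth of tumour 1. Luminal markers and the basal keratin genes Krt5 and Krt14 were above 0 in every library. Of the 10 skeletal muscle markers, the summed level was 16.5, 15649 and 1395 FPKM in glands 1 to 3 and 7.51 to 35.5 in the tumours, highest in gland 2. Lymph node markers summed to 208 and 216 FPKM in glands 1 and 3, to 40.1 in gland 2 and to 2.15 to 54.2 in the tumours.

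In the tumours 9 of the 10 genes were lower and Cald1 was not. In limma with Benjamini-Hochberg adjustment over all tested genes, 9 of 10 were lower and 0 higher (0 also at an unadjusted p under 0.05), where 45.1% of all tested genes were called, 23.1% lower and 21.9% higher. The 3 tumour values lay below the 3 gland values for the same 9 genes, against 29% of all tested genes. The tumour mean was at most 25% of the gland mean for 8 of the 10, against 11% of all tested genes. The median difference in log2(FPKM + 1), tumour minus gland, was -2.86 over the 10 genes and 0.01 over all tested genes. This is the scale of every difference below, and it understates the change of low genes.

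**Figure D1:**
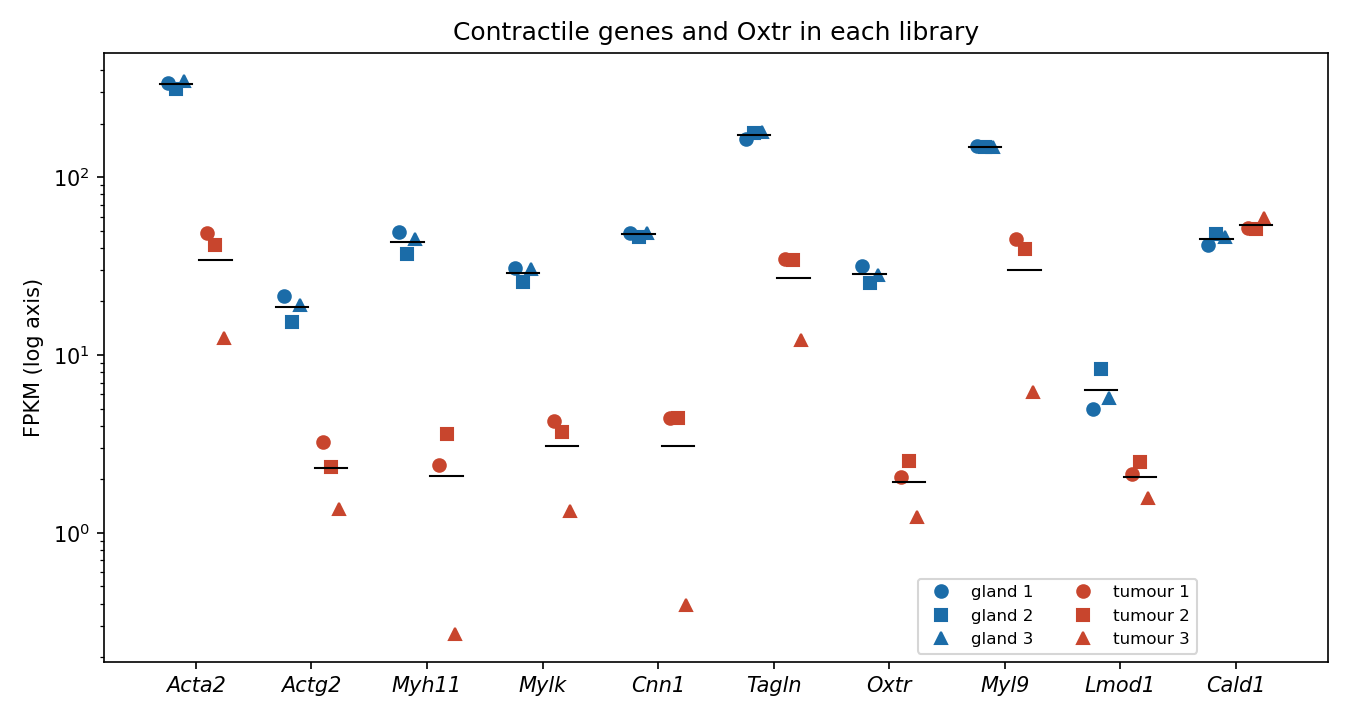
FPKM of the 10 genes on a log axis, with gland libraries in blue, tumour libraries in red, a marker shape for each library number and a black line at each group mean. The tumour values lie below the gland values for 9 genes, with tumour 3 the lowest, and Cald1 lies slightly higher in the tumours.

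The receptor gene Oxtr (ENSMUSG00000049112.9, chromosome 6, 112473683 to 112489943, minus strand, mm10) had gland levels of 31.5, 25.3 and 28.2 FPKM and tumour levels of 2.06, 2.53 and 1.23 FPKM. All 3 tumours lay far below the lowest gland. The tumour mean was 6.84% of the gland mean (1.94 ± 0.657 against 28.4 ± 3.09 FPKM, SD, n = 3 each), a difference of -3.34 (SE 0.19, adjusted p = 5.2e-05 in limma). Its SE was the smallest among the 9 genes that fell.

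Both smooth muscle actin genes fell. Acta2, alpha smooth muscle actin (chromosome 19, 34241090 to 34255590, minus strand), had the highest gland level of the 10 genes, at 339, 312 and 349 FPKM, against tumour levels of 48.4, 41.8 and 12.4 FPKM. The tumour mean was 10.3% of the gland mean (-3.45, SE 0.46, adjusted p = 0.00126 in limma), and without tumour 3 the difference was -2.86. Actg2, gamma enteric smooth muscle actin (chromosome 6, 83512905 to 83536265, minus strand), had gland levels of 21.4, 15.4 and 19.1 FPKM and tumour levels of 3.22, 2.35 and 1.36 FPKM, 12.4% of the gland mean (-2.60, SE 0.24, adjusted p = 2.7e-04 in limma). Of the stretches of 50 bases in the longest coding transcript, 0.352% of those of Acta2 and 0% of those of Actg2 also occurred in a transcript of another gene, so few reads of that length or more would be shared between the actins.

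The motor and its activating kinase fell too. Myh11, the smooth muscle myosin heavy chain (chromosome 16, 14194535 to 14291372, minus strand), had gland levels of 48.97, 36.8 and 44.7 FPKM and tumour levels of 2.42, 3.61 and 0.269 FPKM. It had the largest difference of the 10 genes, with a tumour mean at 4.83% of the gland mean (-4.02, SE 0.45, adjusted p = 5.9e-04 in limma). Mylk, the kinase that phosphorylates the myosin light chain (chromosome 16, 34745210 to 35002420, plus strand), had gland levels of 30.7, 25.6 and 30.3 FPKM and tumour levels of 4.25, 3.70 and 1.32 FPKM (-2.95, SE 0.30, adjusted p = 0.000435 in limma). Myh11 and Mylk thus each held their highest tumour value far under their lowest gland value. The table gives 1 value per symbol and does not separate the short smooth muscle form of the kinase from its long form or from telokin.

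Myl9, the regulatory light chain that the kinase acts on (chromosome 2, 156775420 to 156781658, plus strand), had nearly equal gland values, at 149, 148 and 147 FPKM. Its tumour values were 44.9, 39.4 and 6.17 FPKM, with tumour 3 far below the others. The difference was -2.65 (SE 0.66, adjusted p = 0.0165 in limma) and -1.79 without tumour 3. The call was lost without gland 3 (-2.66, adjusted p = 0.0518, where its alternatives ranged from 4.5e-05 to 0.834).

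The genes that bind along the thin filament did not move together. Cnn1, basic calponin of smooth muscle (chromosome 9, 22099216 to 22109630, plus strand), had gland levels of 48.4, 46.1 and 48.6 FPKM and tumour levels of 4.42, 4.43 and 0.392 FPKM (-3.82, SE 0.51, adjusted p = 0.00121 in limma), or -3.17 without tumour 3. Tagln, the actin-bundling protein SM22 alpha (chromosome 9, 45929619 to 45936058, minus strand), had gland levels of 163, 177 and 180.5 FPKM and tumour levels of 34.8, 34.1 and 12.2 FPKM (-2.77, SE 0.37, adjusted p = 0.00128 in limma). Lmod1, a leiomodin that nucleates actin filaments (chromosome 1, 135324807 to 135368065, plus strand), was the lowest of the 10 in the glands, at 4.95, 8.36 and 5.75 FPKM, against tumour levels of 2.14, 2.50 and 1.58 FPKM (-1.24, SE 0.22, adjusted p = 0.00372 in limma). Its highest gland value was in gland 2, the library with the most skeletal muscle RNA. The part of that RNA in the Lmod1 level was not tested.

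Cald1, caldesmon, which binds actin and myosin and restrains their interaction (chromosome 6, 34598500 to 34775473, plus strand), had gland levels of 41.3, 47.7 and 46.1 FPKM and tumour levels of 51.98, 50.8 and 58.9 FPKM. The 3 tumours lay above the 3 glands, as they did for 29.3% of all tested genes, and the difference of 0.25 (SE 0.11, adjusted p = 0.097 in limma) did not pass the threshold. Caldesmon has a smooth muscle and a non-muscle form from the same gene, which 1 value per symbol does not separate.

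Annotation limits 1 of these levels more than the others. In GENCODE M21, 62.4% of the exon bases of Tagln lie opposite an antisense gene, Gm48529, and 5.43% opposite Pcsk7. No source used here states the strand setting of the authors' counting, so reads of the antisense gene may be part of the Tagln level. Pcsk7 averaged 12.1 ± 0.857 FPKM in gland and 16.7 ± 1.97 in tumour (SD, n = 3 each). For Mylk, 4.87% of the exon bases lie opposite E130310I04Rik, which was listed at 0 in 5 libraries and at 0.139 FPKM in gland 2.

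The order of the levels differed between the tissues. In the glands it ran Acta2, Tagln, Myl9, then Cnn1, Cald1 and Myh11, whose values overlapped from 1 to the next, then Mylk and Oxtr, which overlapped, then Actg2 and Lmod1. In the tumours Cald1 stood first at 53.9 ± 4.35 FPKM (SD, n = 3). Acta2, Myl9 and Tagln followed with overlapping values, between 6.17 and 48.4 FPKM. Mylk, Cnn1, Actg2, Myh11, Lmod1 and Oxtr came last, each overlapping the next, between 0.269 and 4.43 FPKM. The 10 genes summed to 841 to 899 FPKM in the glands and to 199, 185 and 95.8 FPKM in tumours 1 to 3.

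Tumour 3 was compared with the mean of tumours 1 and 2 after its values were seen, as a description. Its level was under 50% of that mean for 7 of the 10 genes, against 10.4% of 13227 tested genes, whose median was 100.3%. Cnn1 was at 8.86%, Myh11 at 8.93%, Myl9 at 14.6% and Acta2 at 27.5%. Oxtr was at 53.7%, Lmod1 at 68.0% and Cald1 at 115%. Of the fibroblast markers 11 of 12 were under 50% (median 32.3%), of the basal identity genes 7 of 14 (54.8%), of the pericyte and vascular smooth muscle markers 3 of 12 (69.1%) and of the luminal markers 0 of 9 (104%). The pericyte and vascular smooth muscle markers ranged from 34.5% to 275%. The lymph node markers were lowest, with 9 of 9 under 50% (median 3.86%), followed by the adipocyte markers with 7 of 8 (11.7%), and of the endothelial markers 4 of 8 were under 50% (47.9%). The part of these cell types in the low contractile genes of tumour 3 was not tested.

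The test of whether the other genes fell more or less than Acta2 subtracted the log2 value of Acta2 in the same library from every gene. Relative to Acta2, Lmod1 (2.21, SE 0.71, adjusted p = 0.00224 in limma) and Cald1 (3.71, SE 0.64, adjusted p = 3.2e-08 in limma) were higher. In the exact permutation test p was 0.1 for each of the 9 genes except Oxtr. This is the smallest p that 3 against 3 libraries can give, and it did not set Lmod1 and Cald1 apart from the others. In limma the other 7 did not pass, so that 2 of the 9 were higher and 0 lower at an adjusted p under 0.05. At the same threshold 94.4% of all genes were higher and 0.322% lower. At an unadjusted p under 0.05, 0 of the 9 were lower. The difference between Oxtr and Acta2 was 0.11 (SE 0.69), and between Mylk and Acta2 it was 0.50 (SE 0.69). Tumour 3 was the lowest tumour in Acta2, and without it 5 of the 9 were higher and 1 lower relative to Acta2, where the share over all genes was not computed. Among those were Myl9 (1.07, SE 0.10), Tagln (0.56, SE 0.12) and Myh11 (-0.62, SE 0.21), while Oxtr turned to -0.29 (SE 0.17) with no call.

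Non-contractile genes of the basal layer were mixed and did not fall as a list. Which cells of the bulk tissue expressed them was not tested. Of 14 basal identity genes 3 were lower, 5 higher and 6 did not pass, with a median difference of 0.27. The 3 of 14 lower lay near the 23.1% of all tested genes that were lower, and 21.9% of all tested genes were higher. The basal keratin gene Krt14 had gland levels of 87.3, 94.3 and 85.3 FPKM and tumour levels of 137, 133 and 39.7 FPKM (0.02, SE 0.45, adjusted p = 0.979 in limma), with tumours 1 and 2 above every gland and tumour 3 below. The sign of this difference turned under quantile normalization (-0.12) and scaling to equal sums (-0.0510). Its partner Krt5 had gland levels of 51.8, 54.3 and 58.9 FPKM and tumour levels of 92.9, 90.97 and 34.3 FPKM (0.27, SE 0.37, adjusted p = 0.584 in limma). Without tumour 3 both passed as higher, Krt5 by 0.73 (adjusted p = 0.00142, where alternatives ranged from 0.00142 to 0.961) and Krt14 by 0.60 (adjusted p = 0.00283, where they ranged from 0.00283 to 0.996).

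Trp63, the p53-family factor that specifies basal epithelium, averaged 9.54 ± 1.90 FPKM in gland and 6.06 ± 2.68 in tumour (SD, n = 3 each; -0.64, SE 0.31, adjusted p = 0.135 in limma). The basal keratin gene Krt17 did not pass either (0.33, SE 0.12). The genes that rose included Sfn, the 14-3-3 sigma gene (2.26, SE 0.12), the hemidesmosome integrin gene Itgb4 (1.33, SE 0.26) and the laminin chain gene Lamb3 (0.75, SE 0.14). The Notch ligand gene Jag2 (-1.73, SE 0.19), the R-spondin receptor gene Lgr6 (-1.63, SE 0.25) and the laminin chain gene Lama3 (-1.03, SE 0.23) fell.

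Per unit of Krt14, the FPKM of Acta2 was 3.89, 3.31 and 4.09 in gland and 0.352, 0.315 and 0.312 in tumour. This ratio was nearly the same in the 3 tumours although tumour 3 stood apart in each gene. With other references Acta2 was lowest in tumour 3. Per unit of Krt5 it was 0.521, 0.459 and 0.362 in the tumours. Relative to the mean of the 14 basal identity genes its log2 value was 1.43, 1.09 and 0.0819. Krt14 was the lowest of these 14 genes in tumour 3 against tumours 1 and 2, at 29.4%. The ratio of Oxtr to Krt14 was 0.361, 0.269 and 0.331 in the glands and 0.0150, 0.0191 and 0.0311 in the tumours, highest in tumour 3. The ratio of Cnn1 to Krt14 was 0.555, 0.489 and 0.571 in the glands and 0.0322, 0.0334 and 0.00987 in the tumours, lowest in tumour 3.

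Relative to the mean of the 14 basal identity genes in the same library, the same 9 genes had groups that did not overlap, tumour below gland, where 25.5% of all tested genes did. In limma 9 of 10 were lower and 0 higher (0 also unadjusted), against 19.4% lower and 9.48% higher among all genes. Oxtr differed by -3.42 (SE 0.22), Acta2 by -3.54 (SE 0.31) and Cald1 by 0.17 (SE 0.26). Without the reference these differences were -3.34, -3.45 and 0.25. The mean of the basal identity genes thus differed little between the groups, and this fit largely repeats the raw comparison. Each of the 9 had p = 0.1 in the exact 2-sided permutation test, the floor of this design.

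Markers of other cells that express contractile genes were lower in the tumours as well. Of 12 pericyte and vascular smooth muscle markers 8 were lower, 0 higher (0 also unadjusted) and 4 did not pass, with a median difference of -1.07. Shares over all tested genes were 23.1% lower and 21.9% higher. Their summed level was 173 to 177 FPKM in the glands and 67.9 to 73.5 FPKM in the tumours, and none was at 0 in all tumours. The pericyte gene Rgs5 had gland levels of 56.1, 51.2 and 52.8 FPKM and tumour levels of 10.4, 9.88 and 7.91 FPKM (-2.39, SE 0.12). The proteoglycan gene Cspg4 (-1.98, SE 0.18) and the PDGF receptor gene Pdgfrb (-1.79, SE 0.20) fell too. Notch3 was among those that did not pass (-0.13, SE 0.41), and its level was highest in tumour 3, at 20.6 FPKM.

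Of 12 fibroblast markers 11 were lower, 0 higher (0 also unadjusted) and 1 did not pass, Lrrc15 (-0.38, SE 0.19, adjusted p = 0.145 in limma). Shares over all tested genes were 23.1% lower and 21.9% higher. The median difference of the list was -2.78 against -2.86 for the 10 contractile genes. The summed level of these markers was 2329 to 2525 FPKM in the glands and 171 to 563 FPKM in the tumours, lowest in tumour 3. None of the markers was at 0 in all tumours. The PDGF receptor gene Pdgfra (-3.38, SE 0.31), the collagen-binding proteoglycan gene Lum (-4.00, SE 0.53, or -3.33 without tumour 3), Pi16 (-3.24, SE 0.26) and the serine protease gene Fap (-2.61, SE 0.25) were among those that fell. Of 8 endothelial markers all 8 were lower (summed level 221 to 260 FPKM in the glands and 21.8 to 45.97 in the tumours), and of 8 adipocyte markers all 8 were lower. All 9 luminal markers were higher, with a summed level of 1208 to 1277 FPKM in the glands and 3300.3 to 3568 in the tumours. The part of these cell types in the level of the contractile genes was not tested.

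**Figure D2:**
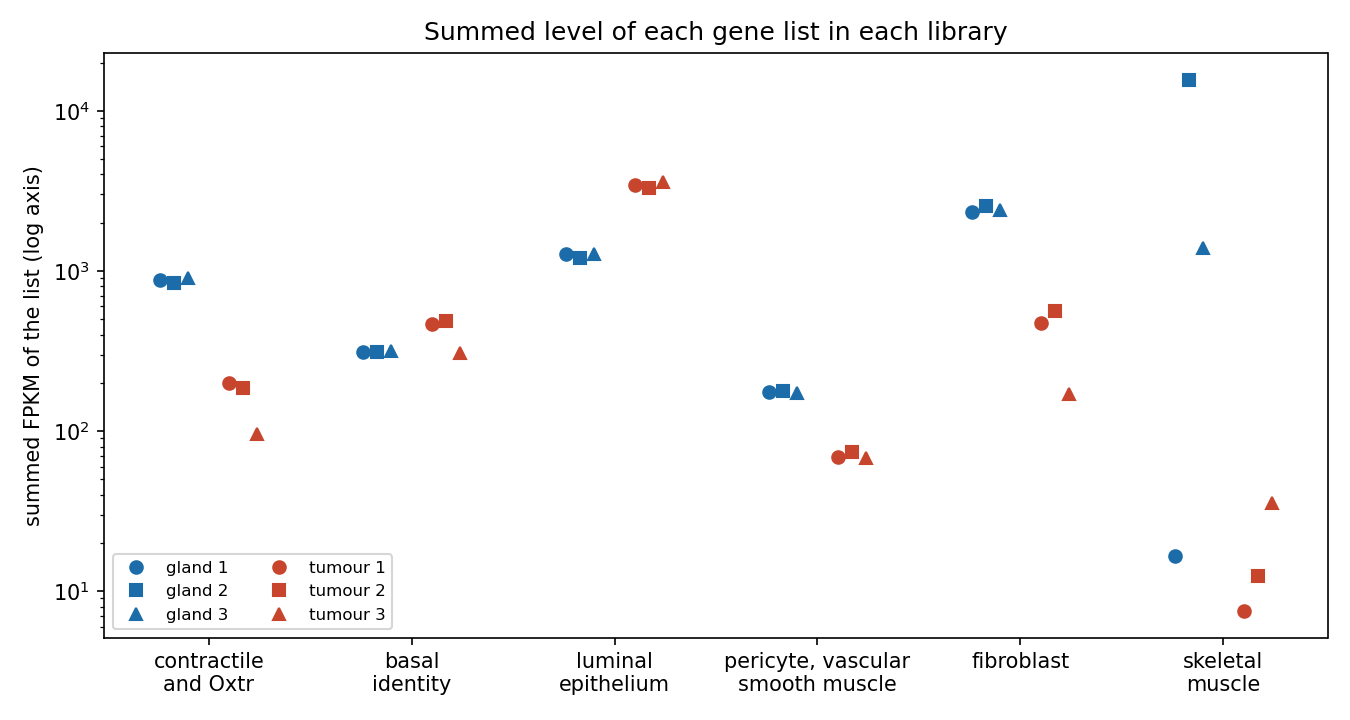
Summed FPKM of 6 gene lists on a log axis, with gland libraries in blue, tumour libraries in red and a marker shape for each library number. The contractile and fibroblast lists lie lower in the tumours and lowest in tumour 3, the basal list overlaps between the groups, and the skeletal muscle list spans 16.5 to 15649 FPKM among the glands.

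Relative to the pericyte and vascular smooth muscle markers of the same library, the tumour values of 8 of the 10 genes still lay below the gland values, where 7.01% of all tested genes did. In limma 7 were called lower and Cald1 higher, and Myl9 lost its call (-1.38, SE 0.62, adjusted p = 0.0699, where its alternatives ranged from 4.5e-05 to 0.834). Myh11 differed by -2.75 (SE 0.42), Acta2 by -2.18 (SE 0.43) and Oxtr by -2.07 (SE 0.19), while Lmod1 stood at 0.03 (SE 0.21). Relative to the fibroblast markers, 3 of the 10 genes had tumour values below the gland values, where 0.958% of all tested genes did, and 5 overlapped. The 3 were Myh11 (-1.25, SE 0.57), Cnn1 (-1.05, SE 0.57) and Acta2 (-0.68, SE 0.51). In limma Myh11 was called lower, Lmod1 and Cald1 were called higher, and the other 7 did not pass. The fibroblast markers themselves had a median difference of -2.78, so a gene equal in both groups would stand higher relative to them. The shares of all genes called in limma relative to the pericyte or fibroblast markers were not computed. Oxtr stood at -0.57 (SE 0.57) and Tagln at -0.00445 (SE 0.53). These reference lists were chosen after the data were seen, and the smallest exact permutation p was again 0.1.

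**Figure D3:**
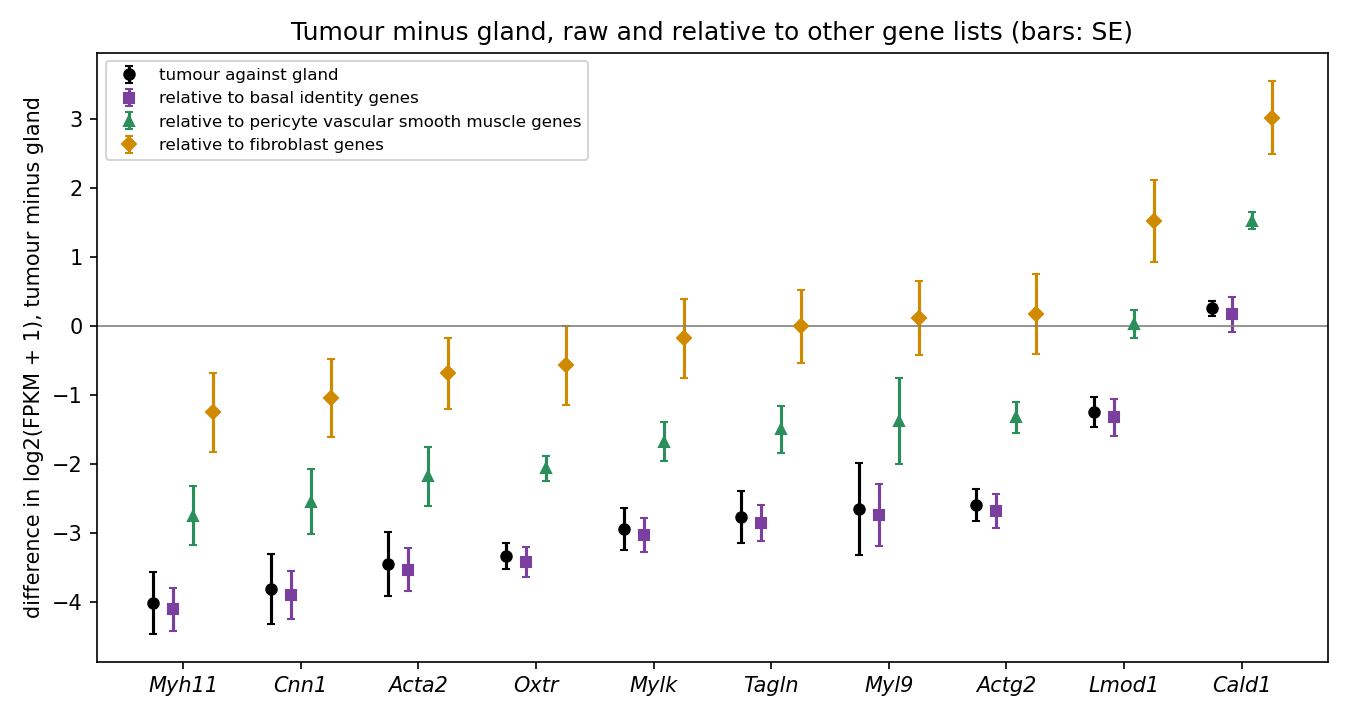
Difference in log2(FPKM + 1), tumour minus gland, for the 10 genes (points, with bars for the SE), raw in black and relative to the basal identity, pericyte and vascular smooth muscle, or fibroblast genes of the same library. Raw and basal-relative points lie close together, pericyte-relative points lie nearer 0 except for Cald1 (1.53 against 0.25), and fibroblast-relative points lie around 0 for Mylk, Tagln, Myl9 and Actg2.

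Serum response factor (SRF) with its myocardin-family cofactors drives the smooth muscle genes through CArG boxes, short elements with 2 C, 6 A or T, and 2 G. The SRF gene Srf had gland levels of 19.96, 19.1 and 17.6 FPKM and tumour levels of 12.7, 14.7 and 16.3 FPKM. These groups did not overlap, but the difference of -0.36 (SE 0.12, adjusted p = 0.0525 in limma) did not pass. It passed with all 6 libraries with the filter raised to 5 FPKM (adjusted p = 0.0484), under quantile normalization (0.0322) and under median-of-ratios scaling (0.0366), and without tumour 3 (0.0209), where its alternatives ranged from 0.0209 to 0.303. The cofactor genes Mkl1 (-0.09, SE 0.23, turning to 0.00983 under quantile normalization) and Mkl2 (0.24, SE 0.20) did not pass. Myocardin (Myocd) was listed at 0 in 5 libraries and at 0.0322 FPKM in gland 1. Of the 12 tested genes of this list 3 were lower, 0 higher (0 also unadjusted) and 9 did not pass, with a median of -0.20. Over all tested genes 23.1% were lower and 21.9% higher, so the 3 of 12 lower lay near the share over all genes. Those that fell included Tgfb1i1, the focal adhesion cofactor Hic-5 (13.6 ± 1.23 to 1.62 ± 1.05 FPKM, SD, n = 3 each; -2.56, SE 0.31), and Klf4, a factor known to repress smooth muscle genes (-1.44, SE 0.21).

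Since 9 of the 10 genes were lower together, the 250 bases upstream of their RefSeq starts (GRCm38.p6) were searched for the CArG box, which reads the same on both strands. Starts of 7 of the 10 genes were matched, with 8 promoters in all. A gene was counted where any of its promoters held a box, while the shares over all promoters count each promoter. An exact box was found for 1 of these 7 genes, against 1.47% of all 32851 promoters, and a box with at most 1 mismatch for 4 of 7, against 18.6%. At least 2 such boxes were found for 3 of 7, against 2.96%. A match is a description of the letters and not a bound site. The windows that hold them are shown 5′ to 3′ on the gene's strand, with the boxes in capitals, to set the promoters of 3 genes that fell beside that of Cald1, which did not.
Acta2, farther box, chr19:34255438-34255467, minus strand: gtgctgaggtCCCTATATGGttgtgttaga
Acta2, nearer box, chr19:34255388-34255417, minus strand: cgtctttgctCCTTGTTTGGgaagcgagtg
Myl9, chr2:156775278-156775399, plus strand: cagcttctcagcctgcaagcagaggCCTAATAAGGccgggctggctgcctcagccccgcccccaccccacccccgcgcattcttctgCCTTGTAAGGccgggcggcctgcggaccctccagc
Lmod1, chr1:135324599-135324683, plus strand: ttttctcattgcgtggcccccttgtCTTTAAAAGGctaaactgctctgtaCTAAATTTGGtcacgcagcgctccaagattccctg
Cald1, chr6:34598276-34598335, plus strand: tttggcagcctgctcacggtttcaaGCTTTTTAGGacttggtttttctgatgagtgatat

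The exact box was the farther of the pair of Myl9, and each other box shown had 1 mismatch. Acta2, Myl9 and Lmod1 each had a pair of boxes within the window and Cald1 had a single box. The stretch that holds the pair of Acta2 overlaps an untranslated region that GENCODE M21 annotates for this gene, whose 5′ end lies at 34255590. Whether the boxes themselves lie inside that region was not checked. No box was found in these windows for Mylk, Cnn1 and Oxtr.

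The pathway from the receptor to the light chain was mixed. Of the 28 genes listed for it 26 were tested, and 10 were lower, 3 higher and 13 did not pass, with a median of -0.19. Shares over all tested genes were 23.1% lower and 21.9% higher. The genes that fell included a phospholipase C gene, Plcb1 (3.78 ± 0.375 to 0.552 ± 0.236 FPKM, SD, n = 3 each; -1.63, SE 0.19), and a plasma membrane calcium pump gene, Atp2b4 (-1.80, SE 0.15). Relatives of these genes were added after their values were seen. Plcb2 and Plcb4 fell too. Plcb3 (mean 16.3 FPKM in gland and 23.0 in tumour) and Atp2b1 (15.7 and 19.9) had higher gland levels than Plcb1 and Atp2b4. Their tumour means were higher than their gland means, without passing the threshold. The calcium entry channel gene Orai1 rose from 14.1 ± 1.23 to 55.5 ± 13.6 FPKM (SD, n = 3 each; 1.88, SE 0.19), and the calmodulin gene Calm2 rose by 0.84 (SE 0.11). A further 2 were chosen after their values were seen: Ppp1r14a, the smooth muscle inhibitor of myosin phosphatase (gland levels 9.42, 7.89 and 10.96, tumour levels 2.46, 2.66 and 0.590 FPKM; -1.93, SE 0.33), and Kcnmb1, the smooth muscle subunit of the calcium-activated potassium channel (-1.51, SE 0.21), listed at 0 in tumour 3. The channel genes Cacna1c and Kcnma1 had means under 1 FPKM over the 6 libraries and were not tested. Their gland means were 1.17 and 1.22 FPKM and their tumour means 0.116 and 0.166 FPKM.

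**Figure D4:**
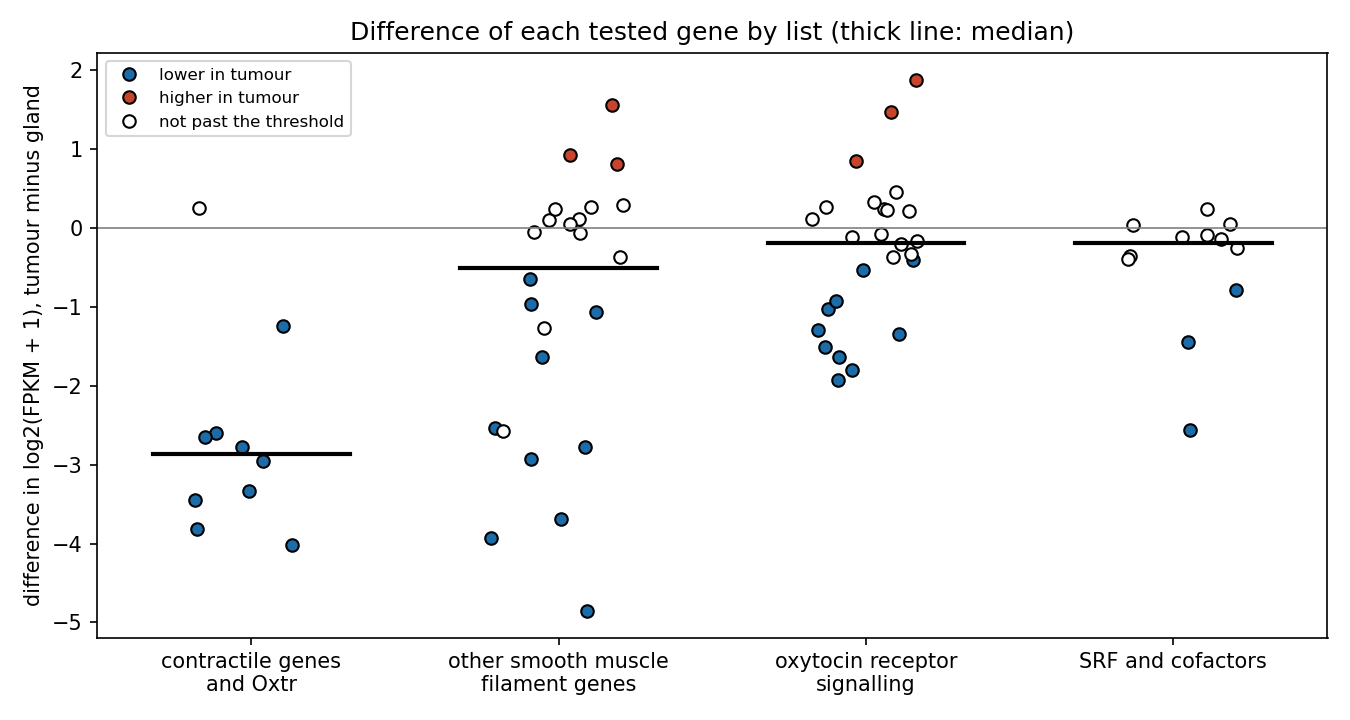
Difference in log2(FPKM + 1), tumour minus gland, of each tested gene in 4 lists, filled where it passed the threshold in limma, with a thick line at the list median. The 10 contractile genes have a median of -2.86, and the medians of the other lists lie between -0.51 and -0.19.

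Other filament genes of smooth muscle were mixed. Of 24 tested 10 were lower, 3 higher and 11 did not pass, with a median of -0.51. Shares over all tested genes were 23.1% lower and 21.9% higher. The dense body gene Synpo2 fell by 2.77 on this scale (SE 0.34). Its gland levels of 5.69, 15.4 and 6.70 FPKM were ordered like the skeletal muscle markers, highest in gland 2. The part of skeletal muscle RNA in the Synpo2 level was not tested. Tagln2, the widely expressed relative of Tagln, rose from 132 ± 6.01 to 390.4 ± 27.9 FPKM (SD, n = 3 each; 1.56, SE 0.11), and the non-muscle tropomyosin gene Tpm4 rose by 0.92 (SE 0.12).

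In some genes of this list that skeletal muscle also uses, chosen after their values were seen, the gland values were ordered like the skeletal muscle markers. The skeletal actin gene Acta1, a marker, had gland levels of 3.63, 3831 and 346 FPKM and tumour levels of 1.65, 1.70 and 10.2 FPKM (-5.41, SE 2.23, adjusted p = 0.0881 in limma). It passed without gland 1 (-8.07, adjusted p = 0.0035, where its alternatives ranged from 0.0035 to 0.957). Desmin (Des) had gland levels of 10.6, 222 and 31.9 FPKM and tumour levels of 2.40, 2.35 and 1.10 FPKM (-3.94, SE 0.97, or -2.76 without gland 2 and -4.89 without gland 1). Tpm2 had gland levels of 45.7, 527 and 94.5 FPKM and tumour levels of 10.4, 10.3 and 7.43 FPKM (-3.69, SE 0.80, or -2.70 without gland 2 and -4.45 without gland 1). Tpm1 did not pass (-1.27, SE 0.84) and stood at -0.22 without gland 2 and -2.04 without gland 1. Of the 10 contractile genes Lmod1 and Cald1 had their gland values in this same order, while Acta2, Myh11, Mylk, Cnn1, Oxtr and Actg2 each had their lowest gland value in gland 2.

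The 5 genes most like Oxtr over the 6 libraries, by the root mean square difference of log2(FPKM + 1) values centred on each gene's mean, were Tns1 (0.097), Pde3b (0.115), Timp4 (0.145), Id4 (0.146) and Foxs1 (0.146), where predicted genes were left out. Tns1, tensin 1 of focal adhesions, had gland levels of 49.1, 40.8 and 45.2 FPKM and tumour levels of 4.05, 4.86 and 3.23 FPKM (-3.20, SE 0.15). Pde3b, a cAMP phosphodiesterase of fat cells, had gland levels of 22.8, 22.2 and 22.6 FPKM and tumour levels of 1.29, 1.41 and 0.725 FPKM (-3.47, SE 0.16). The metalloproteinase inhibitor gene Timp4 (-3.43, SE 0.18), the HLH inhibitor gene Id4 (-3.53, SE 0.22) and the forkhead gene Foxs1 (-3.34, SE 0.25) were lower by similar amounts. The likeness includes the tumour minus gland difference, so differences close to that of Oxtr follow from the choice of genes. Among the other 9 contractile genes Mylk was the closest to Oxtr, in place 89 of the tested genes (0.288), followed by Actg2 in place 185 (0.408) and Tagln in place 210 (0.430).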

How the data were processed

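A single table holds every library, with a value for each gene symbol. No unit is named in its header. The values the authors deposited were read as FPKM, since they are fractional, at least 0 and differ in their column sums. HISAT2, StringTie and mm10 are named, without versions, per the submitters' processing notes; no source used here gives the annotation, read length or strand setting. A gene needed an average of 1 FPKM or more. Its log2(FPKM + 1) values, tumour minus gland, were tested 2-sided in R 4.3.3 with limma 3.58.1, variance trended on the mean, at a Benjamini-Hochberg adjusted p of 0.05 over all tested genes, checked on simulated data. Relative values were fitted in the same way after subtracting a reference from every gene of a library. That adds 1 shared noise term that limma pools over genes, so those p-values are too small, and exact permutation p-values stand beside them. The members and lists were chosen with earlier results of these data known. All 10 members were named, and from each other list up to 4 called genes by smallest p and up to 2 uncalled ones by highest mean, of which a subset is given; any gene of the basal identity and SRF lists could be named, and the 5 genes most like Oxtr. Positions are from GENCODE M21 (GRCm38, the same build as mm10) and promoters from RefSeq. FPKM carry no counts, so counting error did not enter. The alternatives were another pseudocount, 2 filters, 3 scalings, the replicate block, each library left out, glands 1 and 3 left out, no trend and a fold of at least 2. Leaving out glands 2 and 3 and the pericyte, fibroblast and luminal references were added after seeing the data. The LINK-A transgene was not analysed here. Some genes of the lists are not reported here.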

Additional observations from a re-analysis of the deposited data

How the results depend on the processing

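The 9 lower genes kept their direction and their call in 140 of 152 fits over 17 alternatives without another reference level, lost the call in 12 and turned direction in 0. The lost calls were Myl9 without gland 3 and otherwise came from the fits with 1 gland. Genes called numbered 4217 to 6402, members called lower 8 to 9 and members called higher 0 with 1 library left out. Leaving out glands 1 and 3 gave 3 lower members, and leaving out glands 2 and 3 gave 4, with 1 gland left that was assumed to vary like the others. Genes called numbered 1858 (760 higher, 1098 lower) and 1716 (653 higher, 1063 lower) in these fits. A fold of at least 2 gave 2967 genes (1025 higher, 1942 lower), and a mean of at least 5 FPKM gave 1864 lower genes, with fewer genes tested. Quantile normalization shifted the median of all genes to 0.12 and gave 3664 genes higher and 2622 lower, and scaling to equal sums gave 2276 higher and 3193 lower, against 2933 and 3090. Both left 9 members lower.

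The labels give both groups the numbers 1 to 3 without pairing them. Deviations from the group means had r = -0.0541, -0.118 and -0.124 between same-numbered libraries, across genes, which are not independent replicates, so the numbers were not used as pairs. The fit with the replicate block called 4728 genes against 6023, and 9 members lower.

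Relative to Acta2, the members higher numbered 1 at a mean of at least 5 FPKM, without glands 1 and 3 and without glands 2 and 3, and 2 to 5 with 1 library left out, the members lower 0 to 1. Oxtr relative to Acta2 turned to -0.35 at a pseudocount of 0.1, to -0.0121 without glands 2 and 3 and to -0.29 without tumour 3, in a range of -0.29 to 0.42 with 1 library left out. Cald1 relative to basal identity turned to -0.0950 without tumour 3, in a range of -0.0950 to 0.34 with 1 library left out. Relative to the pericyte markers 7 members were called lower and 1 higher, Myl9 lost its call (adjusted p = 0.0699) and Lmod1 stood at 0.0279. Relative to the fibroblast markers 1 member was called lower and 2 higher, with Actg2 at 0.17, Myl9 at 0.11 and Lmod1 at 1.53. The shares over all genes were not computed for these fits or for the alternative fits relative to Acta2. Relative to the luminal markers Cald1 stood at -1.36.

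Krt14 turned to -0.12 under quantile normalization, to -0.0510 at a common sum, and to -0.0666 without glands 1 and 3, and ranged from -0.29 to 0.60 with 1 library left out. Mkl1 turned to 0.00983 under quantile normalization, and to 0.28 without glands 1 and 3, and ranged from -0.27 to 0.12 with 1 library left out. Srf gained a call at a mean of at least 5 FPKM, under quantile normalization, under median-of-ratios scaling and without tumour 3. Tpm1 turned to 0.28 without glands 2 and 3. The cause of these changes was not tested. Values under 1 FPKM, such as Myh11 and Cnn1 in tumour 3, carry an unknown counting error.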
